A study of Mus musculus with 4 samples.

Results

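Ephrins and their Eph receptors, semaphorins with their plexin and neuropilin receptors, and Slits with their Robo receptors were followed in otic vesicles of Meis2 mutant and wild-type mouse embryos. The members were chosen by gene symbol alone, as the protein-coding genes of these families, without a threshold on any measured value. They numbered 59 of the 34866 genes in the table: 8 ephrins, 14 Eph receptors, 20 semaphorins, 9 plexins, 2 neuropilins, 3 Slits and 3 Robos. The otic vesicle is the epithelial sac from which the inner ear forms, and Meis2 is a TALE-class homeodomain protein that binds DNA. There were 2 libraries of Meis2 mutant vesicles (KO 1 and KO 2) and 2 of wild-type vesicles (WT 1 and WT 2), all from C57/BL6 embryos at embryonic day 11.5. The mutant allele, the tissue in which Meis2 was disrupted and the number of embryos per library are not stated in the sources used here.

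Guidance cues are read at the cell surface. Ephrins are bound to the membrane and signal on contact with Eph receptors on a neighbouring cell, whereas class 3 semaphorins and Slits are secreted and mostly repel the growth cones and cells that carry their receptors. Plexins transmit semaphorin signals, neuropilins are the ligand-binding partners of plexins for most class 3 semaphorins, and Robos bind Slits. In the inner ear these systems act on neurons of the otic ganglion and on their axons, and several also shape vessels and epithelia.

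The guidance genes were broadly present, and none differed between Meis2 mutant and wild-type vesicles by a margin that passed the test across all genes. Their summed level was 1445 TPM in KO 1 and 1433 TPM in KO 2, against 1315 TPM in WT 1 and 1354 TPM in WT 2, so both KO libraries were above both WT libraries. TPM, the deposited unit, is a transcript abundance scaled for transcript length and to a fixed total per library, so levels can be set side by side between genes. A mean of at least 1 TPM, the minimum for testing, was reached by 54 of the 59 genes (91.5%), against 61.8% of all protein-coding genes. A mean of at least 50 TPM was reached by 8 guidance genes (13.6%), against 16.0% of protein-coding genes. These 8 were Plxnb2, Plxnd1, Ephb4, Efnb2, Efnb1, Sema4c, Plxnb1 and Efna4. The 5 genes below the minimum were Epha6, Epha8, Epha10, Plxnb3 and Robo3, and none of the 59 was listed at 0 in any library.

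**Figure D1:**
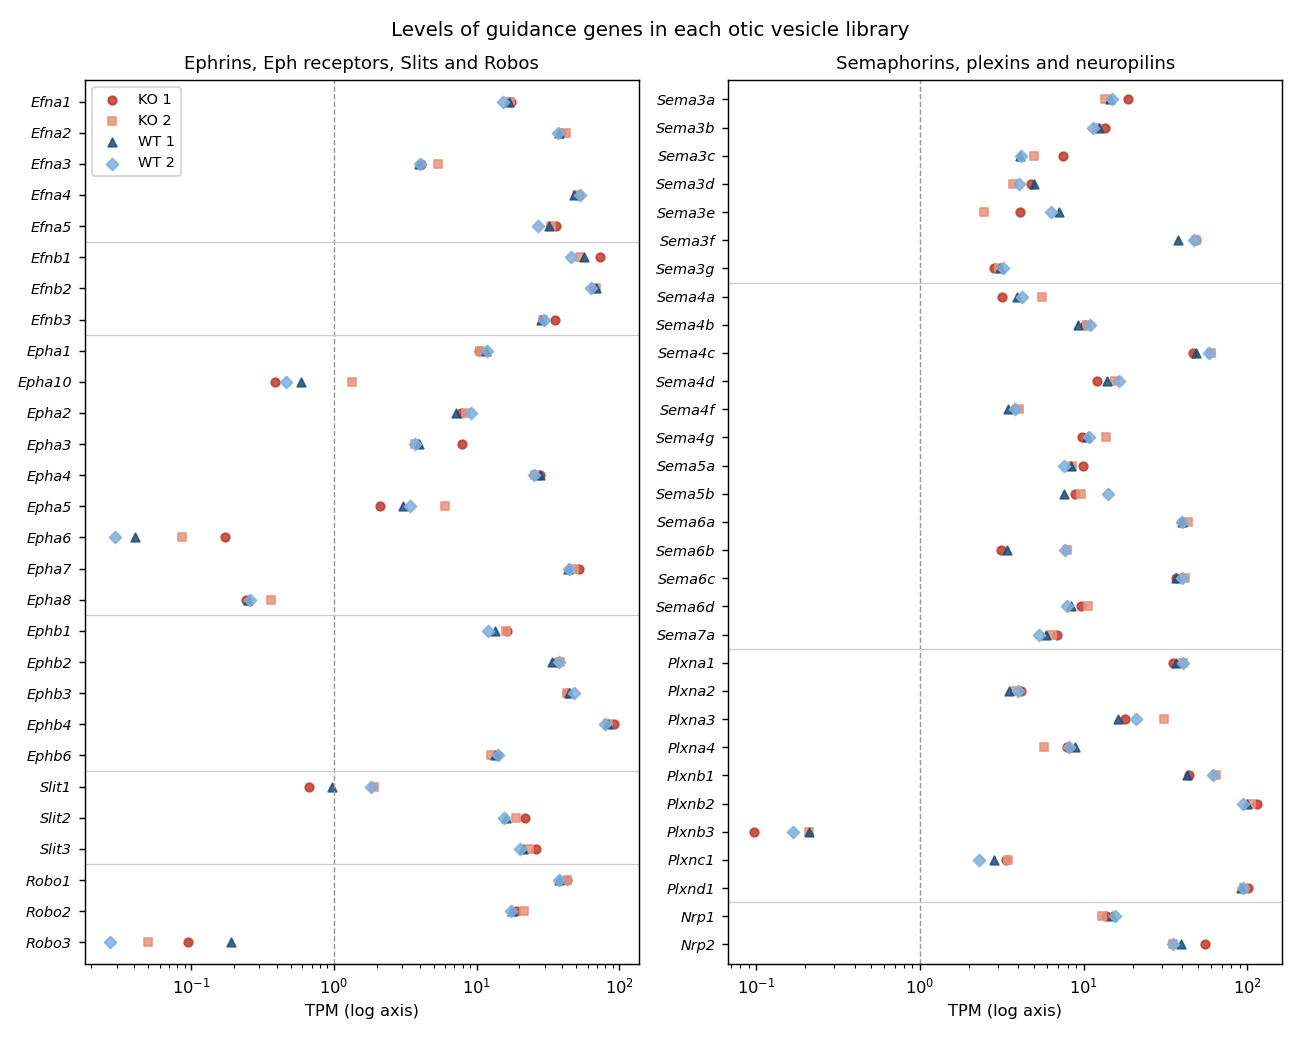
TPM of each of the 59 guidance genes in each library, on a logarithmic axis, with 1 point per library; the dashed line marks 1 TPM. Plxnb2 lies farthest to the right, Epha6 and Robo3 lie farthest to the left, and both KO points of Sema3e lie to the left of its WT points.

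The question the design poses is which of these genes depend on Meis2 in the vesicle. With a moderated test on log2(TPM + 1) (limma, Benjamini-Hochberg adjustment over 14496 genes, threshold 0.05), 0 of the 54 guidance genes tested passed, against 0% of all genes tested. At an unadjusted p under 0.05 there were 3 guidance genes, or 5.56%, against 3.5% of all genes. They were Sema3e, lower in KO (1.41% of all genes lay under that p and lower), and Ephb1 and Slit2, higher in KO (2.09% of all genes). Every adjusted p in that limma fit was 1.00, and with 2 libraries against 2 no exact two-sided test can go below 0.333. The labels do not say that libraries came from separate embryos or litters, so these p-values measure the spread between the libraries, which may be technical.

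The log2 difference, KO minus WT, ranged from -0.88 for Sema3e to 0.49 for Sema3c, with a median of 0.090 over the 54 guidance genes and 0.035 over all genes. It was above 0 for 39 guidance genes (72.2%), against 61.6% of all genes, and below 0 for 15 (27.8%), against 38.4%. A difference of at least 0.5 in size was reached by 1 guidance gene, Sema3e, against 4.81% of all genes. Both KO libraries were above both WT libraries for 20 guidance genes (37.0%), against 19.2% of all genes. Both KO libraries were below both WT libraries for 6 (11.1%), against 10.5% of all genes: Epha1, Ephb3, Sema3e, Sema3g, Plxna4 and Nrp1. The groups overlapped for the other 28. These counts moved with the scaling of the libraries: after median-of-ratios scaling 15 guidance genes lay above without overlap (27.8%, against 14.2% of all genes), and after quantile normalization 13 did (24.1%, against 12.8%). The count of 6 below without overlap was the same under both, against 14.5% and 15.3% of all genes. The share of all genes above 0 was 51.7% and 50.2% under these scalings, and the count of guidance genes above 0 was 37 and 35.

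**Figure D2:**
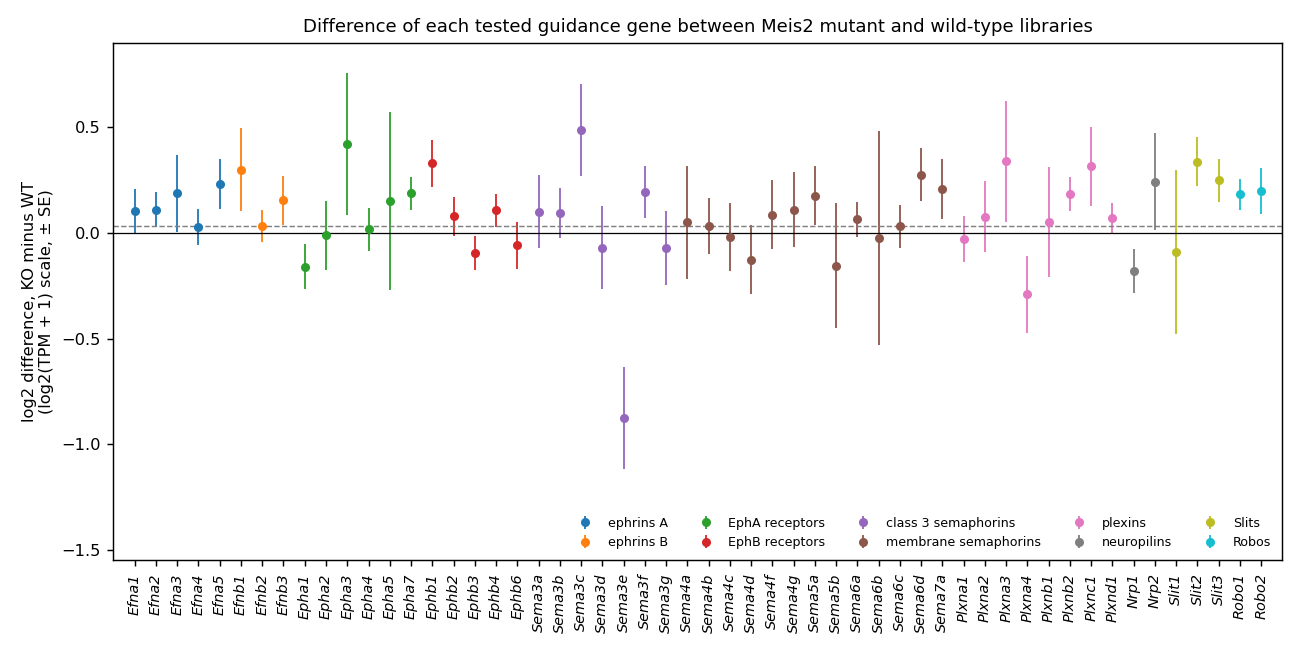
Fitted log2 difference, KO minus WT on the log2(TPM + 1) scale, of each of the 54 guidance genes tested, coloured by role; bars are ± 1 standard error and the dashed line is the median of all genes, 0.035. Sema3e lies lowest at -0.88, and all 8 ephrins (Efna4 only under this scaling) and both Robos tested lie above 0.

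Markers of other tissues were present in the vesicle libraries, with sums that differed between libraries. Markers of otic epithelium were all detected and summed to 1335 and 1435 TPM in KO 1 and KO 2, against 1777 and 1617 TPM in WT 1 and WT 2. Of these 13 markers, 11 were lower in KO, against 38.4% of all genes, and 9 lay below WT without overlap, against 10.5%. Neuronal markers summed to 419 TPM in KO 1 and 1151 TPM in KO 2, against 517 TPM in WT 1 and 795 TPM in WT 2, so both libraries numbered 2 were above both numbered 1. Mesenchymal markers summed to 1412 and 927 TPM in KO 1 and KO 2, against 988 and 801 TPM in WT 1 and WT 2. All 12 were higher in KO on average, against 61.6% of all genes, and 4 lay above WT without overlap, against 19.2%. Endothelial markers summed to 327 and 269 TPM in KO, against 260 and 287 TPM in WT. Of these 11 markers, 9 were higher in KO and 2 lower, against 61.6% and 38.4% of all genes. Without overlap, 6 lay above WT and 1 below, against 19.2% and 10.5%. Erythroid markers summed to 13333 and 15108 TPM in KO, against 10771 and 25700 TPM in WT, with WT 2 the highest. Surface ectoderm markers summed to 239 and 232 TPM in KO, against 301 and 298 TPM in WT. These sums came mostly from Krt8, Krt18 and Krt19, which other epithelia also express. Krt5, Krt14 and Trp63, each with a mean below 1 TPM, were highest in KO 1, at 3.28, 0.802 and 1.29 TPM. Krt15 and Perp were highest in WT 2 and WT 1. Lists for neural crest and glia, hindbrain and macrophages summed to 196, 325 and 53.1 TPM in KO 1 and to 202, 277 and 34 TPM in KO 2, against 192, 252 and 37.4 TPM in WT 1 and 189, 203 and 42.3 TPM in WT 2. Of all markers, Krt14 and Olig3 were listed at 0, both in KO 2, and in bulk tissue fewer cells of a type and less RNA per cell cannot be told apart. Meis2 itself was at 73.2 and 76.6 TPM in KO, against 79.0 and 88.7 TPM in WT (log2 difference -0.16, SE 0.087), a gene-level value that does not check the genotype.

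**Figure D3:**
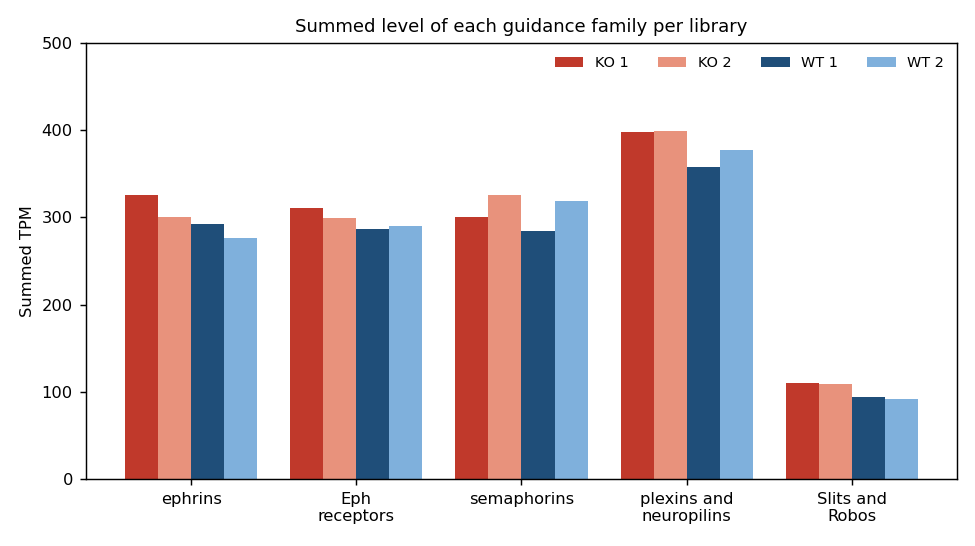
Summed TPM of the members of each guidance family in each library, with 1 bar per library and an axis that starts at 0. Both KO bars are above both WT bars for ephrins, Eph receptors, plexins with neuropilins, and Slits with Robos, whereas for semaphorins KO 1 is below WT 2.

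Of the ephrins, all 8 were tested, and all 8 had a log2 difference above 0 (median 0.133), although that of Efna4 was below 0 under both other scalings. Their sum was 325 TPM in KO 1 and 301 TPM in KO 2, against 293 TPM in WT 1 and 276 TPM in WT 2. The A class, tethered by a lipid anchor, had 4 of 5 members above WT without overlap, against 19.2% of all genes. It had 3 after median-of-ratios scaling and 1 after quantile normalization, against 14.2% and 12.8% of all genes. The B class, which spans the membrane, had 0 of 3 above WT without overlap, and the difference between the classes was not tested. Efna5, a ligand of EphA receptors in topographic maps, was at 36.2 and 33.4 TPM in KO, against 32.2 and 27.1 TPM in WT. The KO libraries were both higher, and the log2 difference of 0.23 (SE 0.12) had an unadjusted limma p of 0.109. Efna2 was at 39.0 and 42.3 TPM in KO, against 37.7 and 37.4 TPM in WT (log2 difference 0.11, SE 0.082). Efna4 was the A-class ephrin with the highest level, at 52.5 and 50.3 TPM in KO, against 48.0 and 52.9 TPM in WT. Its libraries overlapped, and its log2 difference was 0.03 (SE 0.085). Efna1, Efna3 and Efna4 are neighbours on chromosome 3, with gaps of 32.8 and 10.4 kb in GRCm38, and had log2 differences of 0.10, 0.19 and 0.03.

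Efnb1, an X-linked ligand of EphB receptors that helps set tissue boundaries, was at 74.0 TPM in KO 1 and 53.3 TPM in KO 2, against 56.6 TPM in WT 1 and 45.7 TPM in WT 2. KO 1 was the highest library and KO 2 was below WT 1, so the groups overlapped, although KO was above WT within each replicate number (log2 difference 0.38 in number 1 and 0.22 in number 2). Efnb2, which marks arterial endothelium among other cells, was at 66.7 and 69.3 TPM in KO, against 69.0 and 63.9 TPM in WT. Efnb3, a midline cue in the neural tube, was at 35.3 and 29.5 TPM in KO, against 28.2 and 29.5 TPM in WT. KO 1 alone stood apart for Efnb3, and all 4 Efnb2 values lay within a narrow range.

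Of the 14 Eph receptors, 11 were tested, with 7 higher and 4 lower in KO (median 0.078). Their sum was 311 and 299 TPM in KO, against 286 and 290 TPM in WT. Ephb1, which in the visual system mediates repulsion of axons by ephrin-B2, was at 16.4 and 16.1 TPM in KO, against 13.5 and 12 TPM in WT. The KO libraries were nearly equal and both lay above the WT libraries. The ratio of the means was 1.28, and the log2 difference 0.33 (SE 0.11; limma unadjusted p = 0.0346, adjusted p = 1.00). Under median-of-ratios scaling and under quantile normalization Ephb1 no longer had an unadjusted p under 0.05. Epha7, a receptor for A-class ephrins and the most abundant EphA receptor here, was at 52.3 and 48.5 TPM in KO, against 43.8 and 44.5 TPM in WT. KO stood above WT in every pairing, with a log2 difference of 0.19 (SE 0.078; limma unadjusted p = 0.0672).

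Ephb4, the venous receptor for ephrin-B2 and the Eph receptor with the highest level, was at 91.5 and 83.6 TPM in KO, against 83.0 and 79.5 TPM in WT. Ephb2, whose loss in mice disturbs balance, was at 36.8 and 38.6 TPM in KO, against 33.7 and 37.8 TPM in WT. The log2 difference was 0.11 for Ephb4, without overlap except under both other scalings, and 0.08 for Ephb2, with overlap. Epha4, which in mice acts in otic mesenchyme to bundle auditory axons, was at 28.0 and 25.8 TPM in KO, against 28.0 and 25.2 TPM in WT. Its 4 values formed no genotype order, and its log2 difference of 0.02 (SE 0.10) was below 0 under both other scalings.

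Ephb3 and Epha1 were the Eph receptors below WT without overlap. Ephb3 was at 43.2 and 43.1 TPM in KO, against 44.3 and 48.0 TPM in WT (log2 difference -0.09, SE 0.080). Epha1, a receptor found mostly in epithelia, was at 10.4 and 10.6 TPM in KO, against 11.7 and 11.9 TPM in WT. The libraries of each genotype lay close together (SD 0.145 TPM in KO and 0.158 TPM in WT, n = 2 each), and its log2 difference was -0.16 (SE 0.11; limma unadjusted p = 0.203). Markers of otic epithelium were also lower in KO, with a median log2 difference of -0.19, and their part in the Epha1 value was not tested.

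Epha3 and Epha5 differed between single libraries. Epha3 was at 7.86 TPM in KO 1 and 3.72 TPM in KO 2, against 3.96 TPM in WT 1 and 3.70 TPM in WT 2. KO 1 alone was high, and the log2 difference of 0.42 (SE 0.34) became -0.03 without that library. Epha5 was at 2.12 TPM in KO 1 and 6.02 TPM in KO 2, against 3.03 TPM in WT 1 and 3.40 TPM in WT 2. Here KO 2 was the highest and KO 1 the lowest library, and its log2 difference of 0.15 became -0.43 without KO 2 and 0.74 without KO 1. KO 1 also had the highest mesenchymal, endothelial, hindbrain and macrophage sums, and KO 2 the highest neuronal sum. The part of these in either gene was not tested. The remaining Eph receptors gave no separation or were too low to test. Epha2, a receptor found in many epithelia, was at 7.73 and 8.43 TPM in KO, against 7.18 and 9.21 TPM in WT. Ephb6, which lacks kinase activity, was at 13.9 and 12.6 TPM in KO, against 13.4 and 14.2 TPM in WT. The KO and WT values of both overlapped. Epha6 was at 0.173 and 0.0866 TPM in KO, against 0.0405 and 0.0291 TPM in WT. Epha8 was at 0.242 and 0.364 TPM in KO, against 0.251 and 0.260 TPM in WT. Epha10 was at 0.388 and 1.34 TPM in KO, against 0.587 and 0.459 TPM in WT, and in these 3 low genes no fold is read from the values.

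Sema3e carried the largest difference among the guidance genes. It encodes a secreted class 3 semaphorin that binds Plxnd1 directly, without a neuropilin, and restricts the growth of vessels and axons. Sema3e (ENSMUSG00000063531.7, chr5:14025276-14256689, plus strand, GRCm38) was at 4.09 TPM in KO 1 and 2.46 TPM in KO 2, against 7.12 TPM in WT 1 and 6.31 TPM in WT 2. Both KO libraries were below both WT libraries, and the mean was 3.27 ± 1.15 TPM in KO and 6.72 ± 0.58 TPM in WT (SD, n = 2 each), a ratio of 0.487. The log2 difference was -0.88 (SE 0.24; limma unadjusted p = 0.0172, adjusted p = 1.00). Because the groups did not overlap, it was bound to be negative within each replicate number, at -0.67 in number 1 and -1.08 in number 2. Without KO 1 the log2 difference was -1.16 and without KO 2 it was -0.60, also negative by the same lack of overlap. Sema3e also stayed under an unadjusted limma p of 0.05 with median-of-ratios scaling and with quantile normalization, but not when either WT library was left out. Its mean of 4.99 TPM is low, and the depth behind it is unknown. The sum of otic epithelial markers was lower in both KO libraries, as was the surface ectoderm sum, mostly from Krt8, Krt18 and Krt19. The part of these markers in the Sema3e value was not tested. Its receptor Plxnd1 was at 101 and 95.6 TPM in KO, against 91.9 and 94.9 TPM in WT, with a log2 difference of 0.07 (SE 0.069).

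Meis proteins recognise a core of 6 bases, TGACAG, so the windows around the transcription starts of Sema3e and of the Slit and Robo genes described below are shown with any match in capitals. Each window runs from 250 bases before to 50 bases after a RefSeq start on GRCm38.p6 and is written 5′ to 3′ on the gene's strand. Capitals mark TGACAG or its reverse complement CTGTCA, or the TATA-box core TATAAA or its reverse complement TTTATA.
Sema3e chr5:14025026-14025325: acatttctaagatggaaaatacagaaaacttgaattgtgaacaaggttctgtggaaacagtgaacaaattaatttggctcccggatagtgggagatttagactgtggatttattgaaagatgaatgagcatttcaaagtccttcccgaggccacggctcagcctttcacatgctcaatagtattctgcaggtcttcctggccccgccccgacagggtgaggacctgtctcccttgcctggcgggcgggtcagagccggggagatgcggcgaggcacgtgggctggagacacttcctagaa
Slit2 chr5:47982905-47983204: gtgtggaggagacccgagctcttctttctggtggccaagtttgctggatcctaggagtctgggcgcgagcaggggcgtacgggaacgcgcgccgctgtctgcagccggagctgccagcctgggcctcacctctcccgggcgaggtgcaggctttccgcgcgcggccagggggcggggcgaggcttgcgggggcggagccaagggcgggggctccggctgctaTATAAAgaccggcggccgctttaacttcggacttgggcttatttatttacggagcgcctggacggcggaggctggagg
Slit3 chr11:35121206-35121505: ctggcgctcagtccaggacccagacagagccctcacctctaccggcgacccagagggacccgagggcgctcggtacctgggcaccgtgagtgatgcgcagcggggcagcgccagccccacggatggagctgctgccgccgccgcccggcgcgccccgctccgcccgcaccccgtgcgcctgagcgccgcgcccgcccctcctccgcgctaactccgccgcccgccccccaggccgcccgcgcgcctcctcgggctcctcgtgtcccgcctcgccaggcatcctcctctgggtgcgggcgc
Robo1 chr16:72662899-72663198: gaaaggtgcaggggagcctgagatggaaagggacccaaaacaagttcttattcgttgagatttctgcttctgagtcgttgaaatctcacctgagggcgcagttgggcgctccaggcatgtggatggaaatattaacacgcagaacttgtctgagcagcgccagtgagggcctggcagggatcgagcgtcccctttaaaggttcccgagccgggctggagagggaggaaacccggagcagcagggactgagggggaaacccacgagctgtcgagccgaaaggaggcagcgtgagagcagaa
Robo2 chr16:74411776-74412075: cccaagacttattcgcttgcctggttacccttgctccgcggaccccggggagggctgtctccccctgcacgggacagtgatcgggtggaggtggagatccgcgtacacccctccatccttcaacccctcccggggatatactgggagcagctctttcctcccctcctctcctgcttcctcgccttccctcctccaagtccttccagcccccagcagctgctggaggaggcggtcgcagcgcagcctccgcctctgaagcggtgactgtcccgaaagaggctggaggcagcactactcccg
Robo2, upstream start chr16:75092721-75093020: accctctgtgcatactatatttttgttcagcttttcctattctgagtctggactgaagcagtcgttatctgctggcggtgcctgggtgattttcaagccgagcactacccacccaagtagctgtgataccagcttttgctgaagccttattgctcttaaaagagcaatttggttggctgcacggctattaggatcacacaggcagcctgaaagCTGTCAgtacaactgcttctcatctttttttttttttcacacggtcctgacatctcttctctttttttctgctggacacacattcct
Robo2, farthest upstream start chr16:75447244-75447543: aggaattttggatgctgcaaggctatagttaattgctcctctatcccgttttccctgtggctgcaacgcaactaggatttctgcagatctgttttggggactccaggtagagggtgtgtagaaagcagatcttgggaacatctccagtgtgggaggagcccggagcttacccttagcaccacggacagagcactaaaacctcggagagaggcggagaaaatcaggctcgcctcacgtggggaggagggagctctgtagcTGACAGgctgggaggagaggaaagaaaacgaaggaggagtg
Sema3e, Slit3, Robo1 and the first Robo2 window hold none of these letters, Slit2 holds TATAAA beginning 28 bases before its start, and the upstream Robo2 window holds CTGTCA beginning 37 bases before that start. The window at the start farthest upstream holds TGACAG just after that start. The first Robo2 window is the one nearest the annotated gene start, and the Robo1 window lies at an internal start, 354.8 kb from the annotated one.

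The same search covered every guidance gene with a window, which was 52 of the 59 genes and 68 windows, on both strands. TGACAG was in 12 of the 68 windows (17.6%), against 19.2% of 32851 windows of all genes. The 9 genes with it were Efna3, Efnb2, Plxna2, Robo2, Sema3g, Sema4a, Sema4d, Sema6c and Sema7a, whose log2 differences lay between those of Sema4d (-0.13) and Sema7a (0.21). The Pbx and Hox motif TGATNNAT was in 1 window (1.47%), that of Sema6d, against 8.85% of all windows. TATAAA was in 2 windows (2.94%), of Efnb2 and Slit2, against 13.6% of all windows. None of the motifs overlaps another in these 7 windows. The guidance windows had a median GC content of 64.0%, against 56.3% for windows of coding genes and 52.7% for all windows. Their median was 18.5 CpG dinucleotides, against 13 and 7. The motif shares were set against all windows, noncoding genes included, and were not computed for coding genes alone. A match is a run of letters and not a measured binding site.

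Of the 7 class 3 semaphorins, all tested, 4 were higher and 3 lower in KO: Sema3e, Sema3d and Sema3g. Sema3d, Sema3a, Sema3e and Sema3c lie in that order within 5.35 Mb of chromosome 5. Sema3a, next to Sema3e with a gap of 423 kb, repels sensory axons through Nrp1 and was at 18.6 and 13.5 TPM in KO, against 14.5 and 14.9 TPM in WT. Its KO libraries were the highest and the lowest of the 4. Sema3c, known for guiding neural crest in the heart outflow tract, was at 7.51 TPM in KO 1 and 5.0 TPM in KO 2, against 4.06 TPM in WT 1 and 4.13 TPM in WT 2. Both KO libraries were above both WT libraries and KO 1 was farthest, with a log2 difference of 0.49 (SE 0.22; limma unadjusted p = 0.0816). KO 1 also had the highest mesenchymal, endothelial, hindbrain and macrophage sums, and their part in the Sema3c value was not tested. Sema3f, which signals through Nrp2 and is known to limit the growth of cochlear afferents, was the most abundant of the class, at 48.5 and 48.7 TPM in KO, against 38.0 and 47.2 TPM in WT. Only WT 1 stood clearly lower. Sema3b was at 13.5 and 12 TPM in KO, against 12.3 and 11.4 TPM in WT, with overlap. Sema3d, the neighbour of Sema3a on its other side, was at 4.76 and 3.72 TPM in KO, against 4.96 and 4.02 TPM in WT. Sema3g was at 2.83 and 3.06 TPM in KO, against 3.09 and 3.21 TPM in WT, so both KO libraries were lower, by 0.07 on the log2 scale (SE 0.17).

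The 13 membrane-bound semaphorins of classes 4 to 7 were all tested, with 9 higher and 4 lower in KO and a median log2 difference of 0.049. Of these, 4 were above WT without overlap (Sema5a, Sema6a, Sema6d and Sema7a), or 30.8%, against 19.2% of all genes, and 0 were below. Sema6d and Sema7a also lay above without overlap under median-of-ratios scaling, and Sema6d but not Sema7a did under quantile normalization. Sema6d, a ligand of Plxna1, was at 9.69 and 10.6 TPM in KO, against 8.43 and 7.97 TPM in WT (log2 difference 0.28, SE 0.12; limma unadjusted p = 0.0804). Sema6a, a ligand of Plxna2 and Plxna4, was at 40.1 and 43.6 TPM in KO, against 40.0 TPM in each WT library. Sema6c was at 36.7 and 41.8 TPM in KO, against 37.0 and 39.8 TPM in WT. Sema6a separated the groups by KO 2 alone, and Sema6c did not separate them. Sema5a was at 9.88 and 8.49 TPM in KO, against 8.38 and 7.63 TPM in WT (log2 difference 0.18, SE 0.14).

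For several membrane semaphorins the libraries fell by replicate number and not by genotype. Sema6b was at 3.14 TPM in KO 1 and 7.91 TPM in KO 2, against 3.39 TPM in WT 1 and 7.69 TPM in WT 2. Sema4c, a ligand of Plxnb2, was at 46.6 TPM in KO 1 and 59.7 TPM in KO 2, against 48.8 TPM in WT 1 and 58.6 TPM in WT 2. Sema4d, the ligand of Plxnb1, was at 12.2 and 15.5 TPM in KO, against 13.9 and 16.4 TPM in WT. In all 3 the libraries numbered 2 were above the libraries numbered 1, as for the neuronal sums, and the part of neurons in these values was not tested. The log2 differences by genotype were -0.02, -0.02 and -0.13. Sema5b was high in WT 2 alone, at 8.82 and 9.64 TPM in KO, against 7.57 and 14.2 TPM in WT. Sema4a was highest in KO 2 and lowest in KO 1, at 3.16 and 5.58 TPM in KO, against 3.91 and 4.21 TPM in WT. Sema4b, Sema4f and Sema4g overlapped between the groups, with log2 differences of 0.03, 0.09 and 0.11.

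**Figure D4:**
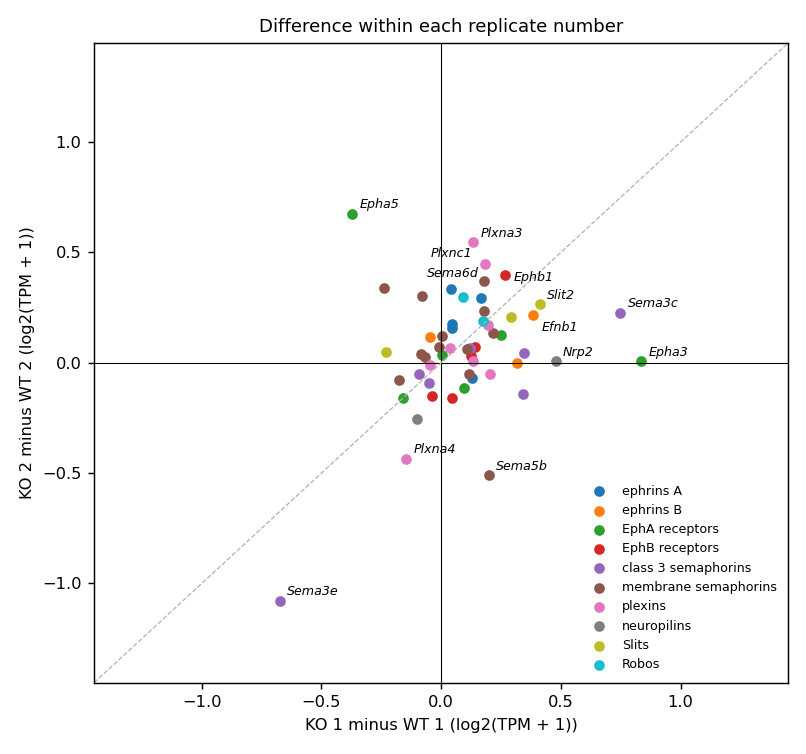
Log2 difference of each of the 54 guidance genes tested within replicate number 1 (horizontal axis, KO 1 minus WT 1) and within number 2 (vertical axis, KO 2 minus WT 2), on the log2(TPM + 1) scale and coloured by role. Of the 54 genes, 29 lie above 0 on both axes and 9 below 0 on both, with Sema3e at the lower left; Epha3 and Nrp2 lie far along the horizontal axis only.

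Within replicate number 1 the median log2 difference of the guidance genes was 0.113, and within number 2 it was 0.064, against 0.033 and 0.037 over all genes. The difference was above 0 in both numbers for 29 of the 54 (53.7%), against 36.6% of all genes. The 20 genes above WT without overlap (37.0%, against 19.2% of all genes) were bound to be among these 29. The count therefore largely repeats that one.

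Among the plexins and neuropilins, 10 of 11 were tested, with 7 higher and 3 lower in KO. Plxnb2, a receptor for class 4 semaphorins and the guidance gene with the highest level, was at 115 and 106 TPM in KO, against 100 and 93.8 TPM in WT. The KO pair was higher, with a log2 difference of 0.18 (SE 0.081; limma unadjusted p = 0.0784). Plxnb1 was at 43.8 TPM in KO 1 and 64.6 TPM in KO 2, against 42.7 TPM in WT 1 and 61.7 TPM in WT 2, so it followed the replicate number as its ligand Sema4d did. Plxna3, which transmits Sema3f signals with Nrp2, was at 17.9 TPM in KO 1 and 30.8 TPM in KO 2. In WT 1 and WT 2 it was at 16.2 and 20.8 TPM. Both libraries numbered 2 were above both numbered 1, and KO 2 was farthest. Plxna4, a receptor for Sema3a and Sema6a, was at 7.91 and 5.77 TPM in KO, against 8.86 and 8.15 TPM in WT. The KO pair was lower (log2 difference -0.29, SE 0.18; limma unadjusted p = 0.179). Plxnc1, the receptor for Sema7a, was at 3.34 and 3.48 TPM in KO, against 2.82 and 2.29 TPM in WT, and Sema7a itself was at 6.84 and 6.46 TPM in KO, against 5.92 and 5.34 TPM in WT. This ligand and its receptor were both higher in both KO libraries, by 0.21 (SE 0.14) and 0.31 (SE 0.19) on the log2 scale. Plxna1, a receptor for Sema6d and for class 3 semaphorins, was at 35.4 and 40.5 TPM in KO, against 36.6 and 40.8 TPM in WT. Plxna2 was at 4.17 and 3.83 TPM in KO, against 3.49 and 4.0 TPM in WT. These 2 genes overlapped between the groups. Plxnb3, too low to test, was at 0.0963 and 0.211 TPM in KO, against 0.209 and 0.168 TPM in WT.

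The neuropilins differed in direction. Nrp1, which binds Sema3a and also a vascular growth factor, was at 13.8 and 12.9 TPM in KO, against 14.9 and 15.6 TPM in WT. The KO libraries were both lower, with a log2 difference of -0.18 (SE 0.10; limma unadjusted p = 0.153). Nrp2 was at 55.4 TPM in KO 1 and 35.3 TPM in KO 2, against 39.5 TPM in WT 1 and 35.1 TPM in WT 2. KO 1 alone was high, and its log2 difference of 0.24 (SE 0.23) was -0.07 without KO 1. The difference between the 2 neuropilins was not tested.

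**Figure D5:**
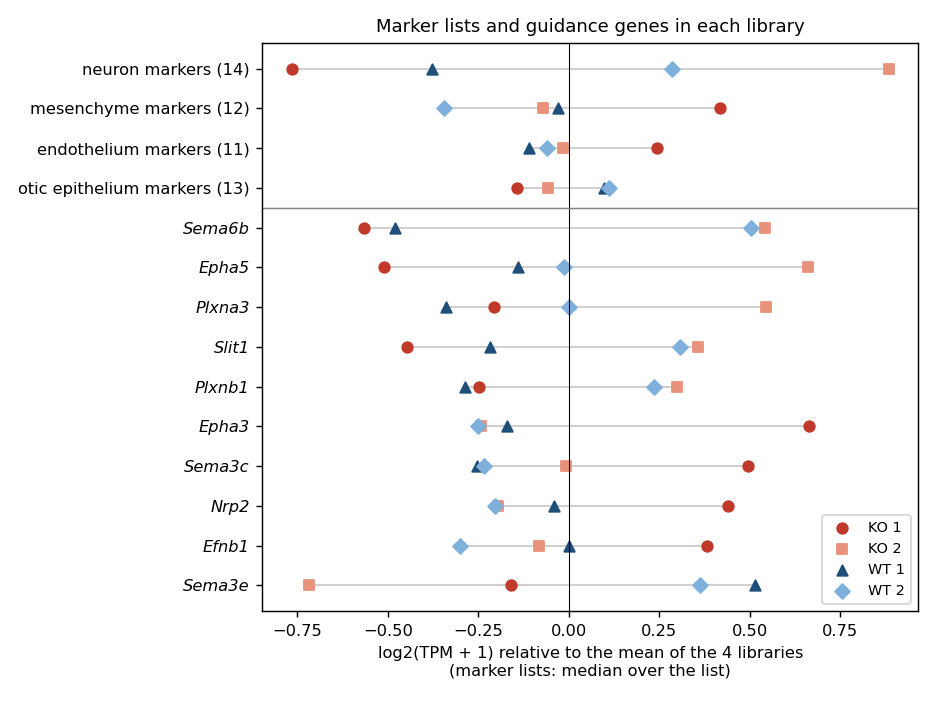
Level in each library relative to the mean of the 4 libraries, on the log2(TPM + 1) scale, for 4 marker lists (median over the list, number of genes in brackets) and for 10 guidance genes chosen after their values were seen. Sema6b and Plxnb1 have both libraries numbered 2 on the right, as the neuronal markers do. Epha3, Sema3c, Nrp2 and Efnb1 have KO 1 farthest right, as the mesenchymal and the endothelial markers do. Sema3e has both KO libraries on the left.

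Most of the Slits and Robos lay above WT. Of the 5 tested, 4 (80.0%) were above WT without overlap, against 19.2% of all genes. The A-class ephrins also reached 80.0% on the deposited TPM, but not under either other scaling. The sum of the Slits and Robos was 110 and 109 TPM in KO, against 93.9 and 92.6 TPM in WT. Slit2, a secreted repellent that with Robo1 and Robo2 positions auditory neurons in mice, was at 21.8 and 18.8 TPM in KO, against 16.1 and 15.5 TPM in WT. The groups did not overlap, with a ratio of means of 1.28 and a log2 difference of 0.34 (SE 0.11; limma unadjusted p = 0.0347, adjusted p = 1.00). Slit3, which in mice also acts outside the nervous system in the diaphragm, was at 26.2 and 23.4 TPM in KO, against 21.2 and 20.2 TPM in WT (log2 difference 0.25, SE 0.10; limma unadjusted p = 0.0618). Slit1, expressed mainly in the nervous system, was at 0.675 TPM in KO 1 and 1.93 TPM in KO 2, against 0.966 TPM in WT 1 and 1.83 TPM in WT 2. It was the low member of the family, with higher values in the libraries numbered 2.

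Robo1 gave the tightest pair of groups. It was at 42.8 and 43.1 TPM in KO, against 37.7 TPM in each WT library, with means of 42.9 ± 0.23 TPM in KO and 37.7 ± 0.066 TPM in WT (SD, n = 2 each). The log2 difference was 0.18 (SE 0.072; limma unadjusted p = 0.0573, adjusted p = 1.00), and its SE is wider than these spreads because limma draws each variance toward that of genes of like level. Robo2, its neighbour on chromosome 16 with a gap of 846 kb, was at 18.9 and 21.7 TPM in KO, against 17.7 and 17.4 TPM in WT (log2 difference 0.20, SE 0.11). Robo3, needed by commissural axons to cross the midline, lay between 0.0270 and 0.192 TPM in all 4 libraries. Slit2, Slit3, Robo1 and Robo2 stayed above WT without overlap under median-of-ratios scaling and quantile normalization, whereas Slit2 then no longer had an unadjusted p under 0.05. Mesenchymal markers were higher in KO on average (median log2 difference 0.32), and their sum in KO 2 was below that in WT 1. Endothelial markers had a median log2 difference of 0.17. Of these 11, 6 lay above WT and 1 below without overlap, against 19.2% and 10.5% of all genes. The part of either list in the Slit and Robo values was not tested.

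The other genes of these pathways showed no call. Of 51 names listed for intracellular effectors and co-receptors of these families, 50 were found and 49 tested. By limma 0 passed and 0 had an unadjusted p under 0.05, against 3.5% of all genes. In KO 35 were higher and 14 lower, against 61.6% and 38.4% of all genes. The median log2 difference was 0.042, against 0.035 over all genes. The smallest p belonged to Robo4, an endothelial relative of the Robos, at 7.83 and 6.48 TPM in KO, against 5.79 and 5.33 TPM in WT (log2 difference 0.31, SE 0.16; limma unadjusted p = 0.110). Flrt3, a Robo1 and Unc5 partner, and Abl1, a kinase downstream of Robos, followed with log2 differences of 0.23 (SE 0.15) and 0.10 (SE 0.083). Of 17 netrin and repulsive guidance molecule genes, 16 were found and 10 tested, with 0 called. By limma 0 had an unadjusted p under 0.05, and 6 were higher and 4 lower in KO, against those same shares of all genes. With 10 genes, a count of 0 cannot be told apart from a share of 3.5%. Unc5c, a repulsive netrin receptor, was at 35.7 and 35.8 TPM in KO, against 31.9 and 29.2 TPM in WT (log2 difference 0.22, SE 0.086; limma unadjusted p = 0.0539). Ntn1, which encodes netrin-1 and is needed for semicircular canal formation in mice, was at 6.32 and 4.29 TPM in KO, against 7.57 and 7.53 TPM in WT. Both KO libraries were lower for Ntn1 and both were higher for Unc5c. The log2 difference of Ntn1 was -0.46 (SE 0.20; limma unadjusted p = 0.0786). Rgmb, a membrane-anchored ligand of neogenin, was at 21.8 and 25.5 TPM in KO, against 20.4 and 19.6 TPM in WT (log2 difference 0.23, SE 0.11).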

How the data were processed

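RNA was measured by sequencing in 2 Meis2 mutant (KO) and 2 wild-type (WT) otic vesicle libraries, grouped by their titles. The authors deposited gene-level TPM, made with Salmon 0.9.1 on GRCm38 per the submitters' processing notes; the annotation release and the summing of transcripts are not stated in the sources used here. TPM keeps no depth, so the depth behind each value is unknown and no interval for counting error can be made. Each library summed to 1000000 TPM. Gene IDs were matched by number to GENCODE M21, which named 34652 of 34866 (53 of the 59 members had the same version). Pseudogenes and other near copies can share reads with a gene.

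From the deposited values log2(TPM + 1) was computed. limma 3.58.1 (R 4.3.3) was fitted to the 14496 genes averaging 1 TPM or more, on genotype alone and with its mean-variance trend. P-values are two-sided, and the Benjamini-Hochberg adjustment ran over all genes tested. Differences are KO minus WT and understate those of low genes. The fit was tested on simulated data. The members follow a rule on symbols, but these families, the gene lists and the tests were chosen with earlier results of these data known. Genes given per library are the 3 highest of each role, the 6 smallest p in each direction and the 5 largest SD over libraries. The other members given by value were added after their values were seen. Alternatives were pseudocounts of 0.1 and 5 TPM, no filter on level, a stricter one at 5 TPM, coding genes only, median-of-ratios scaling, quantile normalization, no trend, a replicate block and leaving out each library. Promoter windows are from RefSeq.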

Additional observations from a re-analysis of the deposited data

How the results depend on the processing

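Under each alternative, 0 guidance genes and 0 listed pathway genes passed the limma test, and 0 of all genes did, except 2 without KO 1 (range 0 to 2 when 1 library was left out). The count of guidance genes with an unadjusted limma p under 0.05 was 3 of 54 as reported (all genes: 3.5%) and 5 of 59 with no filter (3.91%). It was 1, Sema3e, under median-of-ratios scaling (3.19%) and under quantile normalization (3.17%). With 1 library left out it ranged from 1 to 6, with 3 without KO 1 (5.06%), 6 without KO 2 (4.8%), 1 without WT 1 (2.75%) and 1 without WT 2 (2.27%). The filter at 5 TPM removed Sema3e. With a replicate block it was 8 of 54 (14.8%), against 8.13% of all genes. The block was not taken as a pairing, since the labels give only a shared number and there were 2 pairs; deviations of same-numbered libraries correlated at 0.423 over genes. The median log2 difference of 0.090 was 0.063 under median-of-ratios scaling, 0.050 under quantile normalization and 0.056 to 0.137 when 1 library was left out. The median of all genes was then 0.006 and 0.001 under the 2 scalings.

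Of 451 values of the 35 named genes tested, 425 kept their direction and 26 turned, in 14 genes. Efna4 was -0.003 and Epha4 -0.013 under median-of-ratios scaling, and Efna4 was -0.009, Epha4 -0.034 and Sema6c -0.017 under quantile normalization. With 1 library left out, the lowest and highest log2 differences were -0.041 and 0.097 for Efna4, -0.021 and 0.088 for Efnb2, -0.032 and 0.876 for Epha3, -0.056 and 0.091 for Epha4, -0.433 and 0.738 for Epha5, -0.003 and 0.159 for Ephb2, -0.074 and 0.560 for Nrp2, -0.224 and 0.325 for Plxnb1, -0.118 and 0.319 for Sema3a, -0.197 and 0.156 for Sema4c, -0.291 and 0.038 for Sema4d, -0.577 and 0.529 for Sema6b, -0.061 and 0.123 for Sema6c, and -0.493 and 0.312 for Slit1. The lone library left in a group was assumed to vary like the other group. Beyond these constructions, the cause was not tested.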
